A study of Caenorhabditis elegans and Caenorhabditis briggsae with 26 samples.

Results

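The 150 ortholog pairs described here are genes whose stage profiles of transcript level correlate negatively between the nematodes Caenorhabditis elegans and Caenorhabditis briggsae. They were taken from 13813 pairs that had their own values in both species, out of 21774 gene IDs in all. Values were RPKM, reads scaled by the length of the gene model and by the mapped reads of the library, put on the scale log2(RPKM + 1) and averaged over the libraries of each of 7 stages. A pair was eligible when its highest stage reached at least 10 RPKM and its range over the stages was at least 2 log2 units in each species, which left 4199 pairs. The 150 pairs with the lowest Pearson correlation r between the 7-stage profiles form the set. The stage values therefore chose the members, and everything given below on the staged libraries that entered this choice is a description without a test.

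The study measured poly(A) RNA of wild-type C. elegans (strain N2) and wild-type C. briggsae (strain AF16) grown at 20 °C in liquid medium with E. coli. The stages were mixed embryos (E), L1, L2, L3, early L4 (L4) and late L4 (LL4) larvae and young adults that did not yet carry eggs (YA). A reference sample of each species held mixed stages. Feeding of starved L1 larvae set the clock, and C. elegans was harvested after 7, 20, 29, 41, 52 and 57 h from L1 to YA, and C. briggsae after 6, 20, 28, 41, 53 and 63 h. In each of the species E and L1 had 3 libraries from 2 time courses, with A1 and A2 from the first culture and B from the second, the reference had 2 libraries of culture A, and the other 5 stages had 1 library each. No stage from L2 to YA has a replicate, so the larval part of every profile rests on single libraries. Read counts were not used here and the depth is unknown. RNA came from whole animals, so fewer cells of a type and less RNA per cell cannot be told apart.

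As background, most genes of development keep their timing between these species, which look alike and are both hermaphroditic. A larva replaces its cuticle at the end of every stage, and genes for cuticle, pharyngeal lining and molting enzymes are switched on and off once per molt cycle, so that their level in a harvest depends on the hour within the stage. A population of mixed embryos can hold early embryos, which live on maternal RNA, and late embryos, in which muscle, gut and cuticle genes are active. Genes for detoxification and stress respond to food, chemicals and temperature.

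The correlation of the members ran from -0.972 to -0.201, with a median of -0.391 against 0.808 over the eligible pairs. Only 275 eligible pairs had r below 0, and 51 members lay below -0.5, so most members were only weakly negative. With Spearman's rho 31 of the 150 were no longer below 0, and of the 47 alternating members described below 30 stayed below 0. Just inside the limit stood dgk-2, which encodes a diacylglycerol kinase, at -0.206, C16B8.4 at -0.202 and gst-41, of the glutathione S-transferase family, at -0.201. Just outside it stood idpc-7 and T24C12.4, both at -0.200, and ttr-51 at -0.199. Each profile was also rebuilt from 1 embryo and 1 L1 library per species, in all 81 combinations. In every one of them 143 members stayed below 0, as did 178 of the 4199 eligible pairs, members included. The median width of the members' r over the combinations was 0.235. The L2 to YA values were the same in all combinations. Means over the embryo and L1 libraries took part in choosing the members, so the count is a description only.

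**Figure D1:**
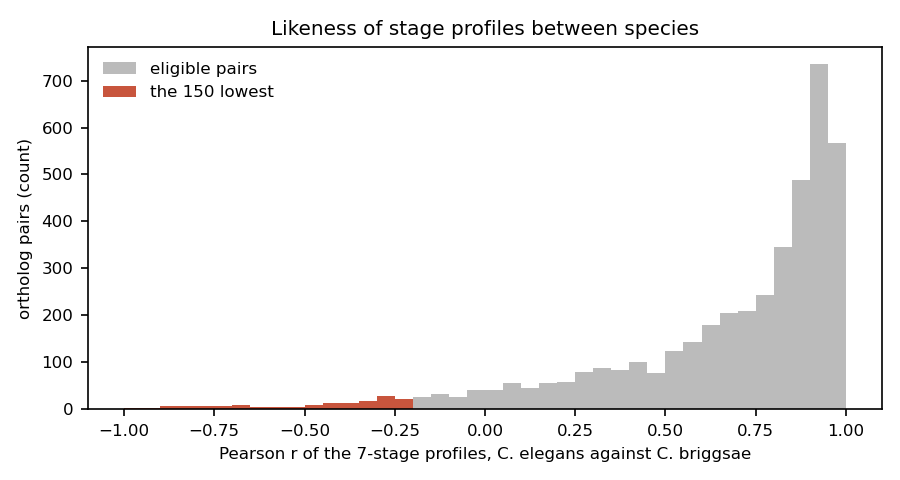
Number of eligible ortholog pairs (vertical axis, count) by Pearson r of their 7-stage profiles (horizontal axis), with the 150 lowest in red and the other eligible pairs in grey. The members end at -0.201 while the eligible pairs crowd near the upper end around their median of 0.808.

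The median maximum of the members was 29.8 RPKM in C. elegans and 41.8 RPKM in C. briggsae, against 51.6 and 52.4 RPKM over the eligible pairs, and their median range was 3.36 and 3.42 log2 units against 3.37 and 3.67. Of their 1650 staged library values per species, 283 (17.2%) lay below 1 RPKM in C. elegans and 242 (14.7%) in C. briggsae. Low values are coarse in some libraries. Relative to YA, the smallest step between low values was 2.73-fold (embryo A2) and 2.93-fold (embryo B) as high in C. elegans, 2.93-fold to 3.86-fold in its L1 libraries, 3.25-fold to 7.46-fold in C. briggsae embryos and 6.06-fold in C. briggsae L1 library A1.

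Sorting the profiles by shape gave 3 named groups and a remainder. In 47 members C. elegans L3 stood at least 1 log2 unit above both L2 and L4 while C. briggsae L3 stood at least 1 log2 unit below both. Of the rest, 42 members peaked at E in C. elegans and at another stage in C. briggsae, a shape held by 8.19% of the eligible pairs, and E was the lowest C. briggsae stage in 37 of them. Another 30 peaked at E in C. briggsae alone, as did 9.76% of the eligible pairs, and E was the lowest C. elegans stage in 21 of them. These shapes alone do not mark an inversion, since the eligible pairs that hold them had a median r of 0.309 and 0.861. The remaining 31 members had other shapes. By peak stage, 30 members peaked at L3 in C. elegans and L2 in C. briggsae, 12 at L3 and L4, 14 at E and L2, 12 at E and L1, 10 at E and L4 and 10 at L1 and E. No member peaked at the same stage in both species, apart from 1 at L1.

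**Figure D2:**
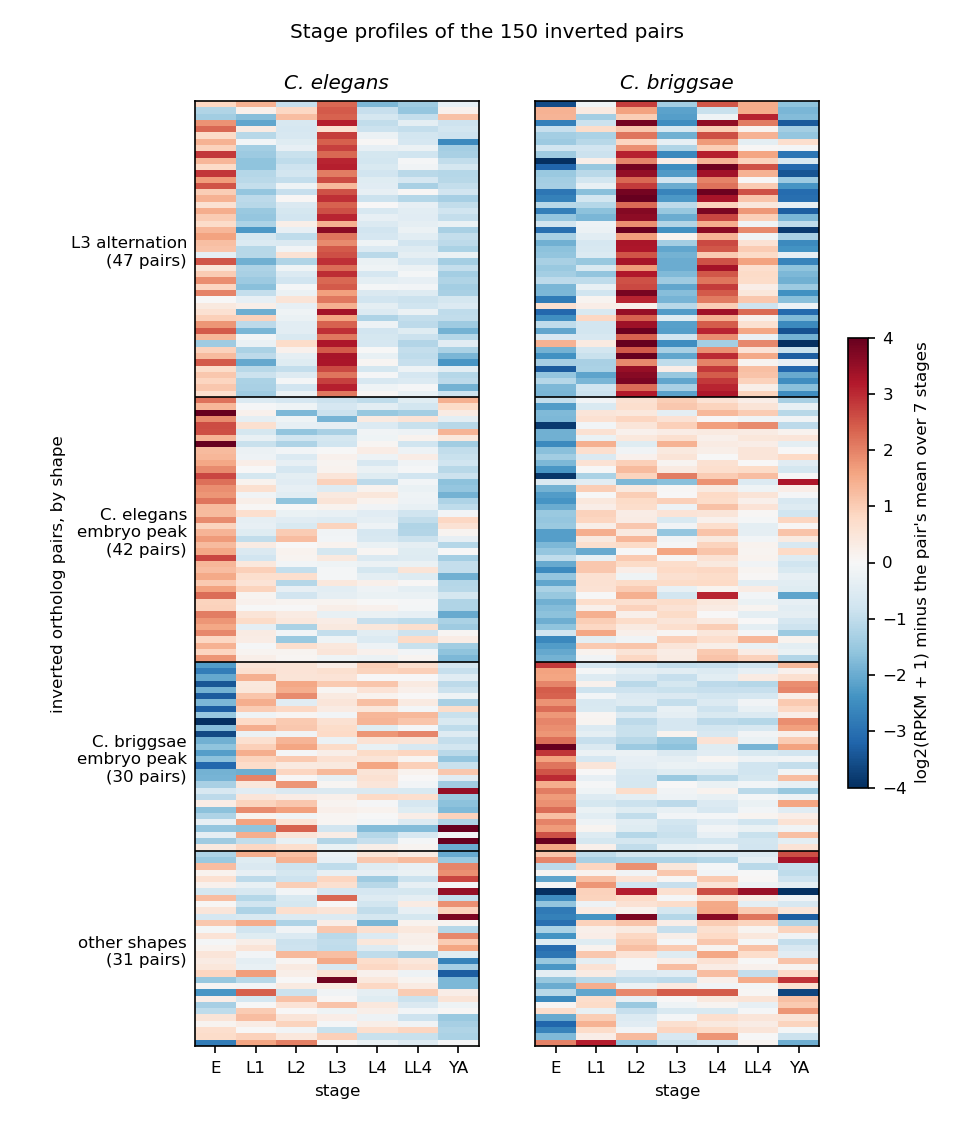
Stage profiles of the 150 pairs, 1 pair per line, in C. elegans and C. briggsae, grouped by shape with the number of pairs in brackets. Colour is log2(RPKM + 1) minus the mean of that gene over the 7 stages in that species. The 47 alternating pairs are high at L3 in C. elegans and at L2 and L4 in C. briggsae, and the 42 and 30 embryo pairs peak in the first column in C. elegans alone and in C. briggsae alone.

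The labelled stages were checked with marker genes, none of which is a member. By mean log2 level, early embryo markers peaked at E and sperm, yolk and oocyte markers at YA in both species. The 4 adult cuticle markers peaked at YA in C. elegans but at LL4 in C. briggsae. In C. elegans they summed to 61.2 RPKM at L2, 949 at L3, 264 at L4, 211 at LL4 and 2030 at YA. The C. elegans L3 sum was mainly rol-6, at 946 RPKM there and 1.51 RPKM at YA. In C. briggsae they summed to 1610 RPKM at L2, 682 at L3, 1810 at L4, 4070 at LL4 and 1860 at YA. Of the C. briggsae LL4 sum, col-7 gave 3890 RPKM, while col-19 was highest at YA in both species. By summed RPKM the C. elegans early embryo markers were higher at YA (1050) than at E (583), as were pos-1, nos-2, mex-5 and pie-1 singly. Several marker sums differed between the embryo libraries of the species, whose RPKM rest on different gene models. The summed level of 7 early embryo markers was 556 to 646 RPKM in C. elegans and 1880 to 2850 RPKM in C. briggsae, while 6 body wall muscle markers summed to 492 to 631 against 8.98 to 107 RPKM and 6 intestine markers to 168 to 222 against 12.5 to 15.2 RPKM. The oocyte sum was 148 to 192 against 328 to 487 RPKM, the sperm sum 4.25 to 5.44 against 85.1 to 93.6 RPKM, and the molt sum 1530 to 1720 against 169 to 190 RPKM. The C. briggsae embryo sperm sum came mainly from fer-1 (38.7 RPKM), spe-6 (31.6) and spe-44 (17.3). The other sperm markers, spe-11, gsp-4 and spe-42, lay at or below 0.588 RPKM there. Of the intestine markers, asp-1 measured 125 RPKM in C. elegans embryos and at most 0.89 RPKM at any C. briggsae stage. For elt-2 and lys-1 the embryo levels were 30.0 and 19.5 RPKM in C. elegans against 4.88 and 1.67 RPKM. The sums of 6 neuron markers overlapped, at 255 to 431 against 251 to 351 RPKM. The 5 yolk genes, which adults express, also summed to 424 RPKM at C. elegans L2 and 70.2 RPKM at L3, against 4.93 and 5.79 RPKM in C. briggsae and 9730 and 19900 RPKM at YA. The part of these differences in the profiles below was not tested.

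The 47 alternating members included 11 with an idp symbol, a set of disordered proteins of the pharyngeal cuticle that was listed after the members had been seen, and 6 abu and pqn genes, several of which encode proteins of the same lining. Over the eligible pairs 19 of 22 idp genes and 15 of 28 abu and pqn genes alternated, and no enrichment was tested. The median alternating pair measured 8.89 RPKM at E, 0.485 at L1, 1.43 at L2, 19.8 at L3, 1.53 at L4, 1.56 at LL4 and 0.708 at YA in C. elegans. In C. briggsae the medians were 1.70, 4.22, 59.1, 1.80, 38, 11.3 and 0.826 RPKM over the same stages. The C. elegans profile had 1 larval maximum, at L3, and the C. briggsae profile had a pair of maxima, at L2 and L4, with a minimum at L3 between them.

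The shape was shared by 223 of 4199 eligible pairs, a background of 5.31%, so most alternating genes had a correlation above the limit. The converse shape, with L3 low in C. elegans and high in C. briggsae, occurred in 11 eligible pairs and in 0 members. In the members L3 exceeded L2 by a median of 2.89 and L4 by 3.01 log2 units in C. elegans, and lay below them by medians of -4.72 and -4.14 in C. briggsae. Over all eligible pairs these medians were -0.19, 0.01, -0.03 and -0.14. In this group E exceeded L1 in 44 of the 47 in C. elegans (median 2.29) but in 11 of them in C. briggsae (median -0.98). Over the eligible pairs E exceeded L1 in 2414 of 4199 in C. elegans (median 0.645) and in 1913 in C. briggsae (median -0.716).

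The gene abu-8 (C03A7.14, chromosome V, 5192995 to 5194608) reached the highest level of the abu members. In C. elegans it measured 7.13, 30.9 and 33.4 RPKM in embryo libraries A1, A2 and B, 0.770, 0.328 and 1.05 RPKM in the L1 libraries, 5.56 at L2, 101 at L3, 3.86 at L4, 6.15 at LL4 and 2.37 at YA. In C. briggsae it measured 7.47, 4.28 and 0.529 RPKM in the embryo libraries, 48.3, 36.5 and 11.1 RPKM at L1, 508.6 at L2, 5.15 at L3, 400.8 at L4, 123.2 at LL4 and 1.30 at YA. The L3 library was thus the highest of the C. elegans libraries and the lowest larval library in C. briggsae. Its paralog abu-11 (T01D1.6, chromosome II, 192509 to 194558) measured 47.1 RPKM at L3, 2.58 at L2 and 1.83 at L4 in C. elegans, and 3.08 RPKM at L3 between 327 at L2 and 266 at L4 in C. briggsae. The third, abu-10 (F35A5.3, chromosome X, 3798182 to 3799741), measured 46.3 RPKM at L3 in C. elegans and 1.92 RPKM at L3 between 153 and 139 RPKM in C. briggsae.

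The lowest r of the alternating members belonged to pqn-74 (W02A2.3, chromosome IV, 13329507 to 13331406) at -0.688. It measured 24.1, 51.9 and 74.6 RPKM in the C. elegans embryo libraries, 64.2, 59.0 and 80.9 at L1, 12.9 at L2, 127 at L3, 6.52 at L4, 8.81 at LL4 and 19.9 at YA. In C. briggsae it measured 11.8, 10.2 and 0.406 RPKM in embryos, 62.9, 52.1 and 71.5 at L1, 477 at L2, 26.5 at L3, 390 at L4, 197 at LL4 and 22.2 at YA. The L1 libraries of the species overlapped for this gene, whereas every embryo library was higher in C. elegans. The others of the group, pqn-63 and pqn-71, kept the shape at lower levels, with pqn-63 at 14.5 RPKM in C. elegans L3 and 0.230 RPKM in C. briggsae L3, between 19.8 at L2 and 27.1 at L4.

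The disordered proteins idpc-5 (T06E4.8, chromosome V, 9622105 to 9622934) and idpc-6 (T06E4.9, 9620150 to 9621036) lie beside pqn-63 on the chromosome. In C. elegans idpc-5 measured 0.995 RPKM at L2, 29.5 at L3 and 1.29 at L4, and in C. briggsae 232 at L2, 1.96 at L3 and 247 at L4. The gene idpc-6 measured 0.634, 17.4 and 1.51 RPKM in C. elegans and 228, 1.55 and 243 RPKM in C. briggsae at these stages. Their C. briggsae values differed by at most 0.386 log2 units in all 13 libraries, so how reads were divided between these copies is uncertain. No abu pair had values this close, but the family holds similar copies, so the division of reads among them is uncertain too.

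Molting and signalling genes outside the pharyngeal families showed the shape too. The hedgehog-related grl-6 (K10C2.5, chromosome X, 6449959 to 6450939) measured 1.38, 13.5 and 0.796 RPKM at L2, L3 and L4 in C. elegans and 59.1, 0.505 and 34.7 RPKM in C. briggsae. The patched-related ptr-20 (Y53F4B.28, chromosome II, 15158180 to 15163614) measured 4.14, 10.8 and 1.96 RPKM in C. elegans and 18.6, 1.36 and 13.7 RPKM in C. briggsae. The astacin protease gene nas-7 (C07D10.4, chromosome II, 7400545 to 7402725) measured 5.38, 29.8 and 4.57 RPKM against 30.8, 1.34 and 19.5 RPKM. For feh-1, the Fe65-related adaptor (Y54F10AM.2, chromosome III), the values were 7.69, 30.1 and 3.51 RPKM against 75, 9.66 and 38 RPKM. In all 4 genes C. elegans L3 was the highest larval library and C. briggsae L3 lay below its neighbours.

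Alternation also occurred in cuticle families that hold few members. It was found in 27 of 106 eligible cuticle collagens, whose 1 member does not alternate, in 2 of 13 cuticlins and ZP proteins (0 members), in 11 of 44 hedgehog-related and patched-related genes (2 members), and in 6 of 16 astacins (1 member). A list of 7 molt genes (mlt-8, mlt-10, mlt-11, nas-37, noah-1, noah-2 and bli-1), none a member, was not inverted. Its mean log2 level from E to YA was 5.73, 1.95, 2.92, 6.08, 6.17, 7.48 and 1.31 in C. elegans and 3.35, 1.92, 4.03, 6.80, 5.71, 4.35 and 1.82 in C. briggsae. It peaked at LL4 in C. elegans and at L3 in C. briggsae, where the alternating members were at their larval minimum. The part of the hour of harvest within a stage was not tested.

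**Figure D3:**
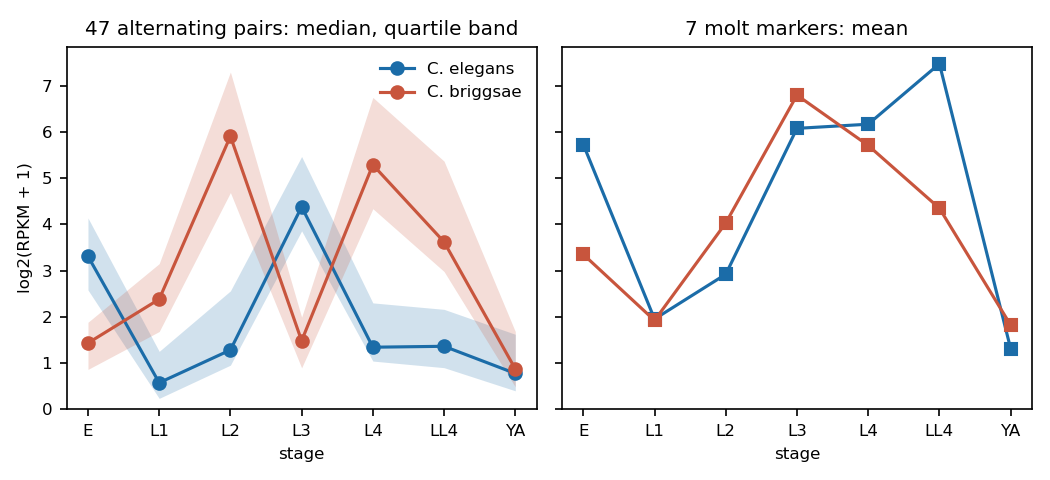
Left, the median of log2(RPKM + 1) over the 47 alternating pairs at each of the 7 stages, with a band from the lower to the upper quartile of the pairs. Right, the mean of 7 molt marker genes on the same axis. The alternating pairs peak at L3 in C. elegans and at L2 and L4 in C. briggsae, while the molt markers peak at LL4 and L3.

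The profiles were also compared with the stages matched differently. With E kept in place and the C. briggsae larval and adult stages read 1 stage later, 13 of the 47 alternating members still had r below 0 (median 0.08), and read 1 stage earlier 4 did (median 0.25). Of the 42 members with a C. elegans embryo peak 41 and 42 stayed below 0, and of the 30 with a C. briggsae embryo peak 29 and 27. Over the eligible pairs the median r was 0.808 with stages matched by name, 0.754 and 0.661 with the shifts. The alternating shape is defined by steps between neighbouring stages and E was kept in place, so how the groups fared relative to each other follows from their definitions.

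Heat-shock genes also fell in the alternating group, with a different spread among libraries. Of 11 eligible small heat-shock and stress genes 3 are members, 27.3% against 3.57% over the eligible pairs, and 2 of the 3, hsp-16.11 and hsp-70, alternate. The Hsp70-family gene F44E5.4 (chromosome II, 11757107 to 11759311), not on that list, measured 2.53, 2.89 and 80.1 RPKM in C. elegans embryo libraries A1, A2 and B, 22.2, 21.7 and 21.2 at L1, 44.8 at L2, 259 at L3, 16.4 at L4, 11.2 at LL4 and 19.3 at YA. In C. briggsae it measured 228, 228 and 128 RPKM in embryos, 78.4, 53.4 and 174 at L1, 1450 at L2, 11.8 at L3, 27.2 at L4, 269 at LL4 and 3.03 at YA. Embryo culture B exceeded culture A by 4.45 log2 units for this gene in C. elegans, the largest such difference of all members, followed by 3.88 for hsp-16.11. The heat-inducible hsp-70 (C12C8.1, chromosome I, 9320325 to 9322519) measured 8.45, 19.8 and 1.51 RPKM at L2, L3 and L4 in C. elegans and 20.5, 1.38 and 8.63 RPKM in C. briggsae, where LL4 was highest at 91.4 RPKM. Heat-shock genes of this type have near-identical copies, so the split between copies is uncertain.

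The 30 members with a C. briggsae embryo peak had the lowest correlations, with a median of -0.708. The median pair measured 1.67 RPKM at E, 23 at L1, 18.4 at L2, 15.7 at L3, 14.4 at L4, 13.1 at LL4 and 8.08 at YA in C. elegans, and 39.5, 6.42, 4.56, 4.76, 4.10, 4.64 and 14.3 RPKM in C. briggsae. Larvae were therefore fairly even in both species, and the embryo stood out below them in C. elegans and above them in C. briggsae. In C. briggsae YA was the next highest stage in the medians.

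Xenobiotic enzymes, which attach oxygen, glutathione or sugars to foreign compounds, made up 4 of the 30. Of 43 eligible xenobiotic enzymes 6 are members, 14% against 3.57% over the eligible pairs. The cytochrome P450 gene cyp-33C9 (C50H11.15, chromosome V, 3091812 to 3094561; r -0.959) measured 0.314, 1.03 and 1.51 RPKM in the C. elegans embryo libraries, 20.5, 27.5 and 12.3 at L1, 17.5 at L2, 18.9 at L3, 22.7 at L4, 23.9 at LL4 and 5.75 at YA. In C. briggsae it measured 20.9, 21.5 and 18.5 RPKM in embryos, 5.05, 7.32 and 4.91 at L1, 4.30 at L2, 4.18 at L3, 3.85 at L4, 4.64 at LL4 and 6.82 at YA. Embryo and L1 libraries did not overlap in either species, and they stood in opposite order.

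The glutathione S-transferase genes gst-27 (Y53F4B.30, chromosome II, 15164890 to 15165731; r -0.830) and gst-29 (Y53F4B.32; r -0.883) lie next to each other. In C. elegans gst-27 measured 1.88, 2.94 and 4.49 RPKM in embryos, 142, 119.3 and 162 at L1, 123.5 to 209 RPKM in L2 to LL4 and 52.5 at YA, and in C. briggsae 14.8, 20.6 and 20.1 RPKM in embryos, 3.93, 1.92 and 9.72 at L1, 1.28 to 2.13 RPKM in L2 to LL4 and 16.9 at YA. Every larval library of C. elegans thus lay above every larval library of C. briggsae, and every embryo library below every C. briggsae embryo library. The gst-29 values had the same order at lower C. elegans levels, 0.129, 0.555 and 0.311 RPKM in embryos against 19.5, 22.9 and 12.6 at L1. The C. briggsae values of these neighbours differed by at most 0.267 log2 units in all 13 libraries, so their C. briggsae profiles may not be separate measurements. The glucuronosyltransferase-type gene ugt-17 (C08B6.1, chromosome V, 10102592 to 10104964) measured 0.669, 3.07 and 3.45 RPKM in C. elegans embryos and 32.2, 49.4 and 14.1 at L1, against 9.88, 12.4 and 11.9 RPKM in C. briggsae embryos and 1.11, 1.20 and 1.5 at L1.

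Other members of this group came from varied classes. The lowest r of all, -0.972, belonged to Y66H1A.5 (chromosome IV, 428070 to 429133), which measured 9.29, 10.9 and 11.9 RPKM in C. elegans embryos and 81.9, 100.1 and 57.9 at L1, against 359.5, 305.5 and 287 RPKM in C. briggsae embryos and 24.3, 24.8 and 32.5 at L1. The C-type lectin gene clec-50 (W04E12.8, chromosome V, 19752399 to 19755368), of a family of sugar-binding secreted proteins, measured 13.9, 9.40 and 16.8 RPKM in C. elegans embryos and 279, 196 and 392 at L1, against 35.3, 37.8 and 35.2 RPKM in C. briggsae embryos and 3.73, 3.19 and 6.08 at L1. The alpha tubulin gene tba-4 (F44F4.11, chromosome II, 10918706 to 10920211) measured 7.17, 5.46 and 12.4 RPKM in C. elegans embryos and 98.1, 98.8 and 80.6 at L1, against 1100, 1309 and 1003 RPKM in C. briggsae embryos and 248, 221 and 288 at L1. In each of these 3 genes the embryo and L1 libraries were apart in both species and in opposite order. The glutathione peroxidase gene gpx-7 (R03G5.5, chromosome X) went with them, at 0.259, 0.611 and 1.19 RPKM in C. elegans embryos, 15.6 to 32.8 RPKM at L1, and 14.4 to 18.4 RPKM in C. briggsae embryos with 4.06 to 5.50 RPKM at L1.

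The gluconeogenic enzyme gene pck-1 (W05G11.6, chromosome III, 62888 to 66260), for phosphoenolpyruvate carboxykinase, joined the group with a high level in C. elegans throughout. It measured 309, 237 and 297 RPKM in C. elegans embryos, 1044, 1437 and 617 at L1, 503 at L2, 443 at L3, 161 at L4, 230 at LL4 and 327 at YA. C. briggsae values were 29.3, 21.7 and 25.5 RPKM in embryos, 1.74, 2.63 and 2.20 at L1, 1.03 to 2.62 RPKM in L2 to LL4 and 9.42 at YA. The lowest C. elegans library was above the highest C. briggsae library.

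**Figure D4:**
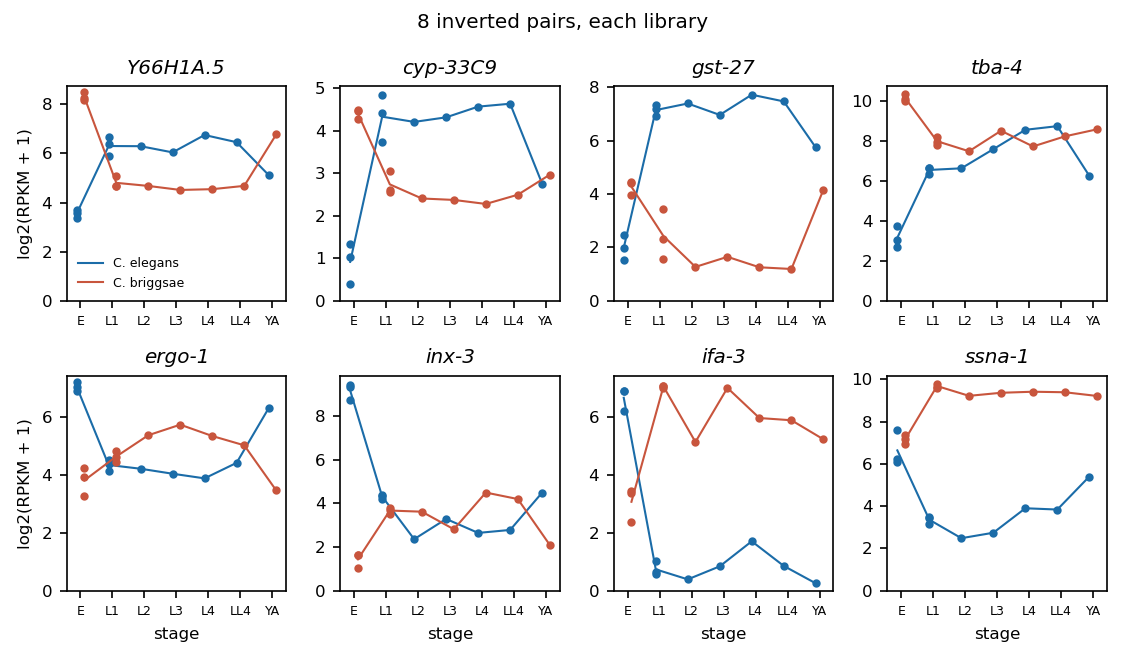
log2(RPKM + 1) of 8 pairs by stage, 1 point per library, with lines through the mean of each stage (C. elegans blue, C. briggsae red; E and L1 have 3 libraries, the other stages 1). In the upper row the embryo is low in C. elegans and high in C. briggsae; in the lower row the embryo is the highest stage in C. elegans and among the lowest in C. briggsae.

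The 42 members with a C. elegans embryo peak included muscle, epithelial and gene-silencing genes. The median pair measured 31.8 RPKM at E, 11.5 at L1, 7.71 at L2, 9.03 at L3, 7.21 at L4, 9.11 at LL4 and 5.65 at YA in C. elegans, and 2.17, 16.3, 20.8, 16.3, 25.5, 17.2 and 10.4 RPKM in C. briggsae. Here too the larval medians were within a narrow range, and the embryo was the stage that departed from them, upwards in C. elegans and downwards in C. briggsae. When E was left out of the profiles, 10 of these 42 kept r below 0, against 25 of the 30 with a C. briggsae embryo peak and all 47 alternating members. The groups were defined by E or by the steps around L3, so this comparison is partly fixed by their definitions.

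The gap junction gene inx-3 (F22F4.2, chromosome X, 5996156 to 5998243), an innexin, measured 428, 683 and 644 RPKM in C. elegans embryos, 20.1, 17.6 and 18.9 at L1, 4.12 at L2, 8.72 at L3, 5.24 at L4, 5.86 at LL4 and 21.4 at YA. In C. briggsae the values were 2.09, 2.07 and 1.06 RPKM in embryos, 12.0, 10.5 and 12.6 at L1, 11.2 at L2, 6.01 at L3, 21.5 at L4, 17.3 at LL4 and 3.25 at YA. The intermediate filament gene ifa-3 (F52E10.5, chromosome X, 16267197 to 16270069), for a cytoskeletal protein of epithelia, measured 73.0, 118 and 120 RPKM in C. elegans embryos and 1.02, 0.482 and 0.544 at L1, with no later library above 2.27 RPKM. The C. briggsae libraries held 9.94, 9.52 and 4.2 RPKM in embryos, 129, 136 and 135 at L1, 34.4 at L2, 129 at L3, 61.9 at L4, 58.6 at LL4 and 36.7 at YA. Every C. elegans embryo library of ifa-3 was thus above every later C. elegans library, and every C. briggsae embryo library below every later C. briggsae library.

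The Argonaute gene ergo-1 (R09A1.1, chromosome V, 1008803 to 1018352), which binds small RNAs in the germline and embryo, measured 149.9, 132 and 118.8 RPKM in C. elegans embryos, 20.1, 16.7 and 21.8 at L1, 13.8 to 20.4 RPKM from L2 to LL4 and 78.3 at YA. C. briggsae values were 18.0, 14.1 and 8.66 RPKM in embryos, 27.8, 21.1 and 23.5 at L1, 40.6 at L2, 52.6 at L3, 39.9 at L4, 31.7 at LL4 and 10.1 at YA. The histone acetyltransferase gene mys-1 (VC5.4, chromosome V, 7081545 to 7084662) had the same order, with 35.3, 47.9 and 45.4 RPKM in C. elegans embryos, 9.50 to 28.4 RPKM in the later libraries, and 26.9, 23.1 and 21.1 RPKM in C. briggsae embryos against 68.9 to 245 RPKM later. Both genes were highest in embryos and next highest at YA in C. elegans, and highest at L3 in C. briggsae. The microtubule-associated ssna-1 (T07A9.13, chromosome IV, 388084 to 388716) measured 192, 74.6 and 66.6 RPKM in C. elegans embryos and 4.58 to 41.2 RPKM later, against 162, 120 and 144 RPKM in C. briggsae embryos and 592 to 890 RPKM later.

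Members with known muscle roles were set beside the muscle markers of the embryo libraries. The formin gene fhod-1 (C46H11.11, chromosome I, 5058251 to 5068831), needed for body wall muscle growth, measured 25, 34.9 and 33.9 RPKM in C. elegans embryos and 7.13, 4.52 and 0.800 RPKM in C. briggsae embryos, against 7.23 to 8.36 and 19.4 to 21.5 RPKM at L1. The muscle LIM protein gene mlp-1 (T04C9.4, chromosome III) measured 159, 83.3 and 76.5 RPKM in C. elegans embryos and 23, 20.1 and 4.04 RPKM in C. briggsae embryos, against 15.1 to 25.8 and 64.5 to 83.6 RPKM at L1. Both were lowest in C. briggsae embryo library B, where the 6 body wall muscle markers summed to 8.98 RPKM, against 107 and 91.9 RPKM in A1 and A2. The nidogen gene nid-1 (F54F3.1, chromosome V), a basement membrane protein, differed from these in showing little change between the C. briggsae embryo libraries, at 15.2, 11.4 and 14.7 RPKM. The part of embryo make-up in these values was not tested.

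Receptor genes were found in this group too. The TGF-beta type I receptor gene daf-1 (F29C4.1, chromosome IV) measured 36.8, 35.8 and 38.1 RPKM in C. elegans embryos and 22.7 to 25.7 at L1, against 10.7, 15.4 and 14.9 RPKM in C. briggsae embryos and 70.3 to 82.0 at L1. Of 29 eligible nuclear hormone receptors 2 are members, nhr-46 and nhr-43. In C. elegans nhr-46 measured 59.2, 82.3 and 88.0 RPKM in embryos and 33.7 to 46.3 at L1, and in C. briggsae 4.52, 5.90 and 2.29 RPKM in embryos and 39.4 to 44.9 at L1. The L1 levels of nhr-46 overlapped between the species, and every embryo library was higher in C. elegans.

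The 31 members of other shapes had no single stage in common that carried the inversion. With any 1 stage left out, 26 (YA) to 31 of them kept r below 0. Their stage medians ran from 10.6 to 14.8 RPKM in C. elegans, and in C. briggsae from 9.12 to 18.9 RPKM apart from E, the lowest at 3.09 RPKM. The collagen gene col-135 (M199.5, chromosome IV, 15129655 to 15131797), the 1 member among 106 eligible cuticle collagens, measured 17.7 RPKM at YA in C. elegans and at most 0.559 RPKM in any other staged library. In C. briggsae the values were 2.17 RPKM at YA, 10.9, 9.74 and 0.198 RPKM in embryo libraries A1, A2 and B, and 405, 280 and 288 RPKM at L1, 1498 at L2, 264 at L3, 1050 at L4 and 1872 at LL4. The transporter gene mrp-4 (F21G4.2, chromosome X), of the multidrug resistance ABC family, measured 50.1 RPKM at YA in C. elegans, above 7.12 to 17.1 RPKM in the other staged libraries, and 2.09 RPKM at YA in C. briggsae, below 4.70 to 12.3 RPKM in the other staged libraries. The ornithine decarboxylase gene odc-1 (K11C4.4, chromosome V), of polyamine synthesis, measured 4.15 RPKM at YA in C. elegans, its lowest library, and 151 RPKM at YA in C. briggsae. The BTB and MATH domain gene bath-47 (T07H3.1, chromosome II) measured 0.644 RPKM at YA in C. elegans and 13.4 RPKM in C. briggsae, with L1 at 9.91 to 28.1 against 0.117 to 0.301 RPKM. YA has 1 library per species, so none of these YA values has a replicate.

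Embryos and L1 larvae are the stages with more than 1 culture, so the inversion can be set beside the spread between libraries there. In 94 members (62.7%) the 3 embryo and 3 L1 libraries did not overlap in either species and ran opposite ways, against a background of 7.79% of the eligible pairs. In 63 of the 94 the embryo was higher in C. elegans and lower in C. briggsae (eligible pairs 6.74%), and in 31 it was the reverse (1.05%). In 52 members the embryo and L1 libraries overlapped in at least 1 species, and in 4 they moved the same way in both (eligible pairs 71.0%). The rule used these libraries, so the counts describe the members and are no evidence for the inversion.

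The same values gave an error to single members. Over 8 means, of 2 stages in 2 time courses per species, limma called the species difference in the change from L1 to embryo in 138 of 148 members tested (93.2%), 36 higher and 102 lower in C. briggsae, against 50.0% of 12618 pairs, 17.2% higher and 32.8% lower, and 58.6% of 4098 eligible pairs, at an adjusted p under 0.05. The rule used this contrast, and nothing is read from the members' count. Quantile normalization moved the median difference of all pairs from -0.29 to 0.11 log2 units and the share of higher calls among all pairs called from 34.3% to 54.1%, while 37 members were called higher and 87 lower. The largest differences were those of ifa-3, with embryo minus L1 at 6.03 log2 units in C. elegans and -4.17 in C. briggsae, of idpc-2, at 3.07 and -4.62, and of K08D9.4, at -2.39 and 4.93. Embryo levels of ifa-3 were 108 ± 17.3 RPKM in C. elegans and 6.96 ± 3.91 RPKM in C. briggsae, and L1 levels 0.646 ± 0.145 and 134 ± 1.74 RPKM (SD, n = 2 cultures each).

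A version of the rule applied to culture A alone left culture B as samples that it had not used. The 150 lowest pairs of that version shared 135 with the members. In culture B the embryo minus L1 difference had opposite signs in the species in 128 of them (85.3%), against 20.1% of the 4202 pairs eligible on culture A. In culture A it had opposite signs in 122, and in 112 the orientation was the same in both cultures. Differences of at least 1 log2 unit in both species and opposite signs in culture B were found for 82 of the 150 (54.7%), against 7.00% of the eligible pairs. The second time course had no library of L2 to YA. Pairs picked for opposite profiles in culture A were set beside all eligible pairs, so a higher share was likely at the outset. Intestine markers summed to 168 to 222 RPKM in C. elegans and 12.5 to 15.2 RPKM in C. briggsae over the embryo libraries of both cultures. Much of that gap was asp-1, at 125 RPKM in C. elegans embryos and at most 0.89 RPKM at any C. briggsae stage. Neuron marker sums overlapped in the embryo libraries, at 255 to 431 RPKM in C. elegans and 251 to 351 RPKM in C. briggsae. A species difference in embryo make-up that both cultures share would recur in culture B, and its part was not tested.

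The spread between cultures was wide for many members in C. briggsae. Culture B differed from A by more than 1 log2 unit in 47 members (31.3%) in C. briggsae embryos, against 18.4% of eligible pairs, and in 22 (14.7%) at L1, against 5.74%. In C. elegans 10 members (6.67%) did so at each stage, against 3.22% in embryos and 7.36% at L1. These shares were not tested against each other. The largest C. briggsae L1 differences, B minus A, belonged to alternating genes, with idpc-6 at -2.29, abu-11 at -2.24 and idpc-5 at -2.17. Thus abu-11 measured 21.1 and 19.3 RPKM in C. briggsae L1 libraries A1 and A2 and 3.46 RPKM in B.

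The mixed-stage reference was not used by the rule, and it gives the level of the members in a mixture of stages. With limma 89 of 150 members differed at an adjusted p under 0.05 (59.3%, against 44.1% of 12042 pairs tested and 41.5% of the eligible pairs). Of these, 61 (40.7%) were higher in C. briggsae, against 18.3% of all pairs, and 28 (18.7%) lower, against 25.8%. The median difference was 0.69 log2 units over the members and -0.16 over all pairs. Both libraries of a species come from 1 sample, so these p-values measure the spread between libraries, which may be technical, and RPKM of the species rest on different gene models.

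The shapes differed in this count. Of the 47 alternating members 29 were higher in C. briggsae and 0 lower (median 1.22), of the 42 with a C. elegans embryo peak 12 and 8 (0.53), of the 30 with a C. briggsae embryo peak 11 and 13 (-0.35), and of the 31 others 9 and 7 (-0.06). Without C. briggsae reference library A1 the alternating count was 17 higher and 0 lower. The alternating members had C. briggsae medians of 59.1 RPKM at L2 and 38 at L4, against a C. elegans maximum of 19.8 RPKM at L3. A mixture of stages can hold these stages, so their reference count is not independent of the values that defined the shape. The differences between the shapes were not tested.

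The largest reference differences were in both directions. The largest excess in C. briggsae was that of col-135, with 15.4 and 11.1 RPKM in the C. elegans libraries and 775 and 384 RPKM in C. briggsae (5.28 ± 0.36 log2 units, SE; limma adjusted p = 4.68e-05). It was followed by T05B4.8 (chromosome V, 4115089 to 4116171; 4.60 ± 0.35, adjusted p = 7.26e-05), by ifa-3 (4.38 ± 0.30, adjusted p = 4.68e-05), by the annotated pseudogene T02G5.4 (3.89 ± 0.28, adjusted p = 5.73e-05) and by W08E12.6 (3.78 ± 0.42, adjusted p = 0.000369). The largest excess in C. elegans was that of Y75B12B.1 (chromosome V, 15184699 to 15185880), at 145 and 212 RPKM against 0.123 and 0.323 RPKM (-7.18 ± 0.33, adjusted p = 1.12e-05). It was followed by clec-50 (-4.74 ± 0.28, adjusted p = 2.78e-05), C10G8.4 (-4.51 ± 0.33, adjusted p = 5.94e-05), pck-1 (-4.24 ± 0.36, adjusted p = 0.000113) and C55A6.1 (-3.83 ± 0.33, adjusted p = 0.000121).

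**Figure D5:**
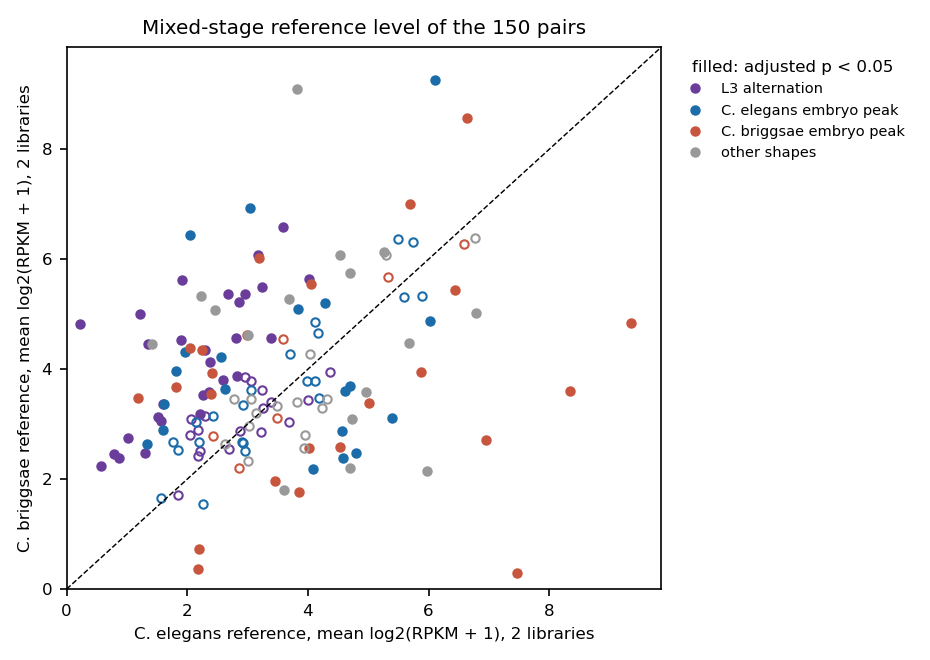
Mean log2(RPKM + 1) of 2 mixed-stage reference libraries in C. elegans (horizontal axis) and C. briggsae (vertical axis), 1 point per member coloured by shape. Filled points had a limma adjusted p under 0.05, and the dashed line marks equal levels; 29 of the 47 alternating pairs are filled above the line and 0 below it.

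What the members shared beyond their profiles was limited. Of the 150, 27 fell in at least 1 of the gene lists used here, and 64 are known by their sequence name alone. There were 0 members among 25 eligible oocyte and maternal factors, 20 germline genes and 8 major sperm proteins, lists in which the share over all eligible pairs comes to less than 1 gene. There was also no member among 89 eligible neuropeptide genes, while 7 of 28 eligible abu and pqn genes (25%) and 12 of 22 idp genes (54.5%) were members, against 3.57% of all eligible pairs. The idp list was drawn up after the members were seen, and none of these shares was tested.

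In the C. elegans genome (WBcel235, Ensembl annotation) 145 members had a position. Chromosome V held 35 of them (24.1%, eligible pairs 19.5%), II 31 (21.4%, 16.6%), IV 28 (19.3%, 16.6%), X 24 (16.6%, 17.2%), I 14 (9.66%, 15.4%) and III 13 (8.97%, 14.6%). The X chromosome held 13 of 39 members with a C. elegans embryo peak (33.3%) and 1 of 29 with a C. briggsae embryo peak (3.45%), while II held 10 of those 29 (34.5%). The alternating members had a median of 1018 exon bases, those with a C. briggsae embryo peak 1107 and those of other shapes 1147. The median was 1670 for the members with a C. elegans embryo peak and 1402 over the eligible pairs. These shares are descriptions of small numbers and were not tested.

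Close neighbours among the members numbered 15 genes in 6 clusters with gaps of at most 10000 bases. The cluster of pqn-63, idpc-6 and idpc-5 on chromosome V (9616031 to 9622934) and that of W08E12.6, W08E12.5 and idpp-12 on chromosome IV (3298600 to 3304569) held only alternating members, as did idpb-3 with idpb-1 on chromosome II (5101044 to 5102679). On chromosome II (15158180 to 15169861) the alternating ptr-20 lies beside gst-27 and gst-29, which are high in C. briggsae embryos, so neighbours can have different shapes. In C. elegans sdpn-1, the syndapin gene, had values within 0.493 log2 units of C17H11.6 and within 0.441 of F46F11.11 in all 13 libraries, and in C. briggsae madf-5 lay within 0.491 of C06G1.5. For these pairs shared reads cannot be told apart from like expression, and they may count as fewer than their number of separate genes.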

How the data were processed

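Poly(A) RNA libraries (26, 13 per species) were analysed from 1 table of RPKM values that the authors deposited, used without further scaling. Per the submitters' processing notes, BWA 0.5.7 was the aligner. The genome build, annotation, counting rule and source of orthologs were not given in the sources used here. The table lists C. briggsae values under C. elegans IDs; 7836 IDs had none, and 125 with identical values were left out. Read counts and depth are unknown. The members, gene lists and tests were chosen with earlier results of these data known.

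Profiles, counts and correlations came from pandas 2.3.3 and numpy 2.4.6 in Python 3.11.15, and figures from matplotlib 3.10.9. The limma model (version 3.58.1, R 4.3.3, with a trended eBayes step) was fitted to log2(RPKM + 1), which understates changes of low genes, over all pairs with at least 1 RPKM in at least 2 samples, adjusted by Benjamini-Hochberg and called below 0.05; both fits were tested on simulated data. Libraries A1 and A2 were averaged first. The labels say that A and B mark separate time courses, so culture was tried as a block; the deviations of embryo and L1 cultures correlated at -0.0234 in C. elegans and 0.193 in C. briggsae over 12618 pairs.

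Genes were named by rule: the 24 lowest r, the 3 lowest r of each list with at least 2 members, the 4 of widest range in each frequent pair of peak stages, the 5 largest reference differences each way and the 3 pairs on each side of the limit. Others (abu-8, gpx-7, nid-1, daf-1, fhod-1, mlp-1, feh-1, nas-7, odc-1, F44E5.4 and those named for their list or position) were chosen after their values were seen. Coordinates are those of Ensembl 115, matched for 145 members. Protein and promoter sequences were not used here, so no sequence features are given.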

Additional observations from a re-analysis of the deposited data

Results flagged for a closer look

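The change from L1 to embryo differed between the species in 138 of 148 members tested (93.2%) by limma's interaction term at an adjusted p under 0.05. The same fit called 50.0% of all 12618 pairs tested and 58.6% of 4098 eligible pairs. These values took part in the choice of the members, so a difference was built into the set, and each is given as a value only. The difference of log2 changes, C. briggsae minus C. elegans, was above 0, with the embryo higher relative to L1 in C. briggsae than in C. elegans, for Y66H1A.5 (6.02), cyp-33C9 (4.85), bath-47 (4.64), ZK121.2 (5.45), gst-29 (5.33), faxc-2 (5.41), RIT6P.965 (6.66), ugt-17 (5.29), clec-50 (7.06), cest-15 (2.88), gst-27 (6.72), W05F2.7 (5.48), tba-4 (5.26), F55B11.4 (5.79), K04G2.7 (4.27) and K08D9.4 (7.32). It was below 0 for ergo-1 (-3.59), mys-1 (-3.08), inx-3 (-7.26), valv-1 (-4.59), K11H12.11 (-5.50), ssna-1 (-5.63), T02G5.4 (-3.37) and ifa-3 (-10.2). These are the 24 members of lowest r.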

How the results depend on the processing

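How many of the 150 remained among the 150 lowest depended on the settings: 63 with a pseudocount of 5, 90 with Spearman's rho, 37 with a maximum of 20 RPKM and a range of 3, 67 with stage E left out and 98 with stage YA left out. Members still eligible numbered 63, 150, 37, 73 and 115, so under the pseudocount and the stricter maximum every member still eligible remained, while with Spearman's rho none had lost eligibility. The stricter maximum and range leave each r as it was and only remove pairs, so that outcome was fixed in advance. With a pseudocount of 5 the limit moved to an r of -0.0124 over 2539 eligible pairs. With the C. briggsae stages read 1 stage earlier 92 of the 150 members had r below 0, and 434 of the 4199 eligible pairs, members included. With stage E left out the r of ifa-3 turned to 0.335; the cause was not tested. In held-out culture B 82 of the 150 pairs picked on culture A (54.7%) had opposite differences of at least 1 log2 unit, against 7.00% of the eligible pairs. Leaving out single libraries or replicates gave 127 to 147 members among the 150 lowest, 149 to 150 with r below 0, 126 to 139 members and 4849 to 6736 pairs called in the embryo and L1 fit, and 65 to 87 members and 2868 to 5210 pairs called in the reference, where the lowest counts came without C. briggsae library A1; a lone library was then assumed to vary like the other group. With culture as a replicate block 140 members and 6073 pairs were called in the embryo and L1 fit; with the library number as a replicate block, which only names reference libraries, 117 members and 7464 pairs. Larval stages and YA had no replicates, and depth was unknown, so differences at low RPKM carry no stated precision.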

Other observations

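In the C. elegans reference 3 members exceeded every staged C. elegans library in both reference libraries: hsp-12.3, C10G8.4 and Y75B12B.1 (2.0% of the members, eligible pairs 4.41%). C10G8.4 measured 479 and 894 RPKM in the reference and at most 125 RPKM in a staged library. In C. briggsae 0 members did so, against 1.33% of the eligible pairs. The reference lay below every staged library of the species for 4 members in C. elegans (2.67%, eligible pairs 0.619%). In C. briggsae it did so for 1 member (0.667%, eligible pairs 0.143%).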
